A study of Arabidopsis thaliana with 14 samples.

Results

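FLOWERING LOCUS C (FLC) and its close relatives form a clade of MADS-box transcription factors that delay flowering in Arabidopsis thaliana. The clade was taken as 6 genes named by their locus identifiers, which are FLC (AT5G10140), FLM, also called MAF1 (AT1G77080), MAF2 (AT5G65050), MAF3 (AT5G65060), MAF4 (AT5G65070) and MAF5 (AT5G65080). They are 6 of the 32548 genes in each deposited table, and all 6 were found in both. RNA was sequenced from 11-day-old seedlings in 14 libraries, 2 for each of 7 groups, as single-end reads of 50 nt. The first table held wild type of the Col-0 accession (replicates 1 and 2), fve(-/-) and suvh2(-/-);suvh9(-/-), called suvh2/9 here. The second had its own Col-0 wild type (replicates 3 and 4) beside rrm1(-/-), the triple mutant pdp1(-/-);pdp2(-/-);pdp3(-/-), called pdp1/2/3, and the quadruple mutant that joins pdp1/2/3 with rrm1. All plants grew on MS plates with 16 h of light at 23 °C and 8 h of darkness at 21 °C, and the labels mention no cold treatment. Each mutant was set against the Col-0 of its table, so that the comparisons within a table share their controls. Nothing in the labels says that replicates came from separate cultures, and the p-values therefore cover the variation among these libraries alone, which may be technical.

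FLC binds to and represses the genes of FT, the mobile signal that starts flowering, and SOC1, a promoter of flowering in the shoot apex. The related proteins act in complexes with FLC and with the MADS-box repressor SVP. In Col-0 the activator FRIGIDA is not functional and FLC is kept low by the autonomous pathway, to which FVE, a WD40-repeat protein also known as MSI4, belongs. SUVH2 and SUVH9 are SET-domain proteins that bind methylated DNA and are needed for RNA-directed DNA methylation. The PDP proteins carry a PWWP domain and have been described as partners of FVE, while the labels give no locus for rrm1.

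The coding sequences of the clade begin alike, and they are shown first because short reads have to tell these genes apart. The lines give the first 60 bases of the conserved coding sequence of each gene from RefSeq (TAIR10.1), with capitals where a base differs from FLC. For MAF5 the longest annotated coding sequence starts 21 bases earlier, and the matching in-frame bases are given.
FLC: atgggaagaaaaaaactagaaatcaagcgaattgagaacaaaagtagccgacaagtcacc
FLM: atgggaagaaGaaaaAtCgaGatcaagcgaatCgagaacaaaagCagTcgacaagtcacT
MAF2: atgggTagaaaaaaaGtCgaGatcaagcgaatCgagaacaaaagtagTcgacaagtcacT
MAF3: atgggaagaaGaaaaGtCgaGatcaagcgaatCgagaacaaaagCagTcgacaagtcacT
MAF4: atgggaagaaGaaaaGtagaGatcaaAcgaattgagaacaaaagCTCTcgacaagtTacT
MAF5: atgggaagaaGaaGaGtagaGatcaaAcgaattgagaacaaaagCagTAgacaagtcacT
Over these bases FLM, MAF2, MAF3, MAF4 and MAF5 differed from FLC at 8, 7, 8, 10 and 9 positions.

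Over the first 180 bases, which encode most of the DNA-binding MADS domain, MAF2 and MAF3 were 94.4% identical, FLM and MAF3 92.8% and FLM and MAF2 91.1%. MAF4 and MAF5 shared 90.0%. Every other pair, including each pair with FLC, lay between 81.1% and 85.0%. Despite this likeness few stretches of 50 bases, the length of a read, occurred more than once in the genome. None of the 1269 distinct stretches of FLC transcripts, none of the 1786 of MAF4 and none of the 1272 of MAF5 had an exact copy elsewhere. For FLM it was 0.25%, for MAF2 0.37% and for MAF3 2.66%. With up to 2 mismatches allowed, 26.0% of the MAF3 stretches and 9.99% of the MAF2 stretches matched another member, against 3.29% for FLM, 1.96% for MAF4, 2.20% for MAF5 and 0 for FLC. The counting could have split reads between relatives most for MAF3 and MAF2, and less for FLM, MAF4 and MAF5.

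The genes lie at 3 loci. FLC is on the minus strand of chromosome 5 (chr5:3173382-3179448 in TAIR10.1), and FLM is on the plus strand of chromosome 1 (chr1:28955483-28960234). MAF2, MAF3, MAF4 and MAF5 stand head to tail on the plus strand of chromosome 5, from chr5:25982254 to chr5:26002619, within 20366 bp. The gaps between neighbours of this cluster are 873, 780 and 1301 bp. All 6 are annotated as protein-coding, with 4 transcripts for FLC, 11 for FLM, 5 for MAF2, 3 for MAF3, 6 for MAF4 and 3 for MAF5.

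The 250 bases before the annotated start of each gene are shown for the 5 MAF genes because runs of identical bases are shared between some of them. Capitals mark runs of at least 15 bases found in another of these windows, each as the longest run of a pair. All are read on the plus strand, 5′ to 3′, from RefSeq TAIR10.1.
FLM (chr1:28955233-28955482): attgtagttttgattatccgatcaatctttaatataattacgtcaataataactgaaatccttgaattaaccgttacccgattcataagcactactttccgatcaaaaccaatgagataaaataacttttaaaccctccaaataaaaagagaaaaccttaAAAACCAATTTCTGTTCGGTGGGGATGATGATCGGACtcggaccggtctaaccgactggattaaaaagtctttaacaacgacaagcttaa
MAF2 (chr5:25982004-25982253): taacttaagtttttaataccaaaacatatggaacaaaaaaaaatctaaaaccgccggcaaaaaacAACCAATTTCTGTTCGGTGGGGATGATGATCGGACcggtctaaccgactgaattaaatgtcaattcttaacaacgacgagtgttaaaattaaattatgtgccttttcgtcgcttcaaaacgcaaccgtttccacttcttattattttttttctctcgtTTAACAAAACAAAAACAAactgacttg
MAF3 (chr5:25987059-25987308): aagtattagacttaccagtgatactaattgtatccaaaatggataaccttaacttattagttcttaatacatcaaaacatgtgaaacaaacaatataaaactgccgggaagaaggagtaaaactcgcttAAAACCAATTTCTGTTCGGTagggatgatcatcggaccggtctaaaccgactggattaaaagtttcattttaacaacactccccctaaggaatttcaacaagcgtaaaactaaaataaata
MAF4 (chr5:25991943-25992192): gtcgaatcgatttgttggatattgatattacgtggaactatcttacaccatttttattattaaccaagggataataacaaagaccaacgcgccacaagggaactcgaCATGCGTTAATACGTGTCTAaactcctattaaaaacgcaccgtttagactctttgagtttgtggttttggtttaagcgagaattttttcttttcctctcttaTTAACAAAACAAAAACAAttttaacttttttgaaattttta
MAF5 (chr5:25997254-25997503): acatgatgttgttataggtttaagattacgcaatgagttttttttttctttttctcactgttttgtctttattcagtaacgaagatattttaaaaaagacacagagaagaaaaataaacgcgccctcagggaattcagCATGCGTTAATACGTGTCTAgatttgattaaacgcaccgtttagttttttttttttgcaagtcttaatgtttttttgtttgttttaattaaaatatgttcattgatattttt
FLM and MAF2 shared a run of 35 bases, FLM and MAF3 a run of 20, and MAF2 and MAF3 18 bases of the same stretch. MAF4 and MAF5 shared a different run of 20 bases, which begins at position -143 of MAF4 and -112 of MAF5, counted from the annotated start. Of the 27443 windows of this length before the protein-coding nuclear genes in the data, 2 (0.00729%) held this run on either strand, those of MAF4 and MAF5. MAF2 and MAF4 also shared 18 bases made of t, a and c close to the start, which 3 windows (0.0109%) held. The longest run of the FLC window with any other member was 10 bases. These are matches of letters, and no factor's binding was measured.

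Levels are given as adjusted counts per 1e+06 (CPM), on a total common to the libraries of a table. A single adjusted count is 0.0465 CPM in the first and 0.0520 CPM in the second, and a count of 0 would still allow 0.140 or 0.156 CPM by counting error alone (3 counts per library). Per kilobase of annotated exon, on which levels of different genes can be compared, the Col-0 seedlings held 3 members at higher levels and 3 at much lower ones. MAF2 stood at 8.29 and 7.83 CPM per kilobase in the Col-0 of the first and the second table, MAF3 at 7.09 and 5.40, and FLM at 5.40 and 5.59. FLC stood at 0.315 and 0.309, MAF4 at 0.478 and 0.348 and MAF5 at 0.283 and 0.489. In counts, the 4 Col-0 libraries held 6.12 to 9.06 adjusted counts of FLC, 10.8 to 20.7 of MAF4 and 5.04 to 12.2 of MAF5, so that the Col-0 level of these 3 rests on few counts. The levels of FLM rest on an exon union of 4480 bp, much longer than that of FLC (1180 bp), and its value per kilobase depends on which of its annotated exons are used. FLC shares exon bases with an annotated antisense transcript, described below, so its value per kilobase depends on how reads there were counted.

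In brief, FLC, MAF4 and MAF5 rose in fve, in pdp1/2/3 and in the quadruple mutant. MAF4 and MAF5, but not FLC, passed the test in rrm1. No member passed it in suvh2/9, and FLM, MAF2 and MAF3 passed it in none of the 9 comparisons made.

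**Figure D1:**
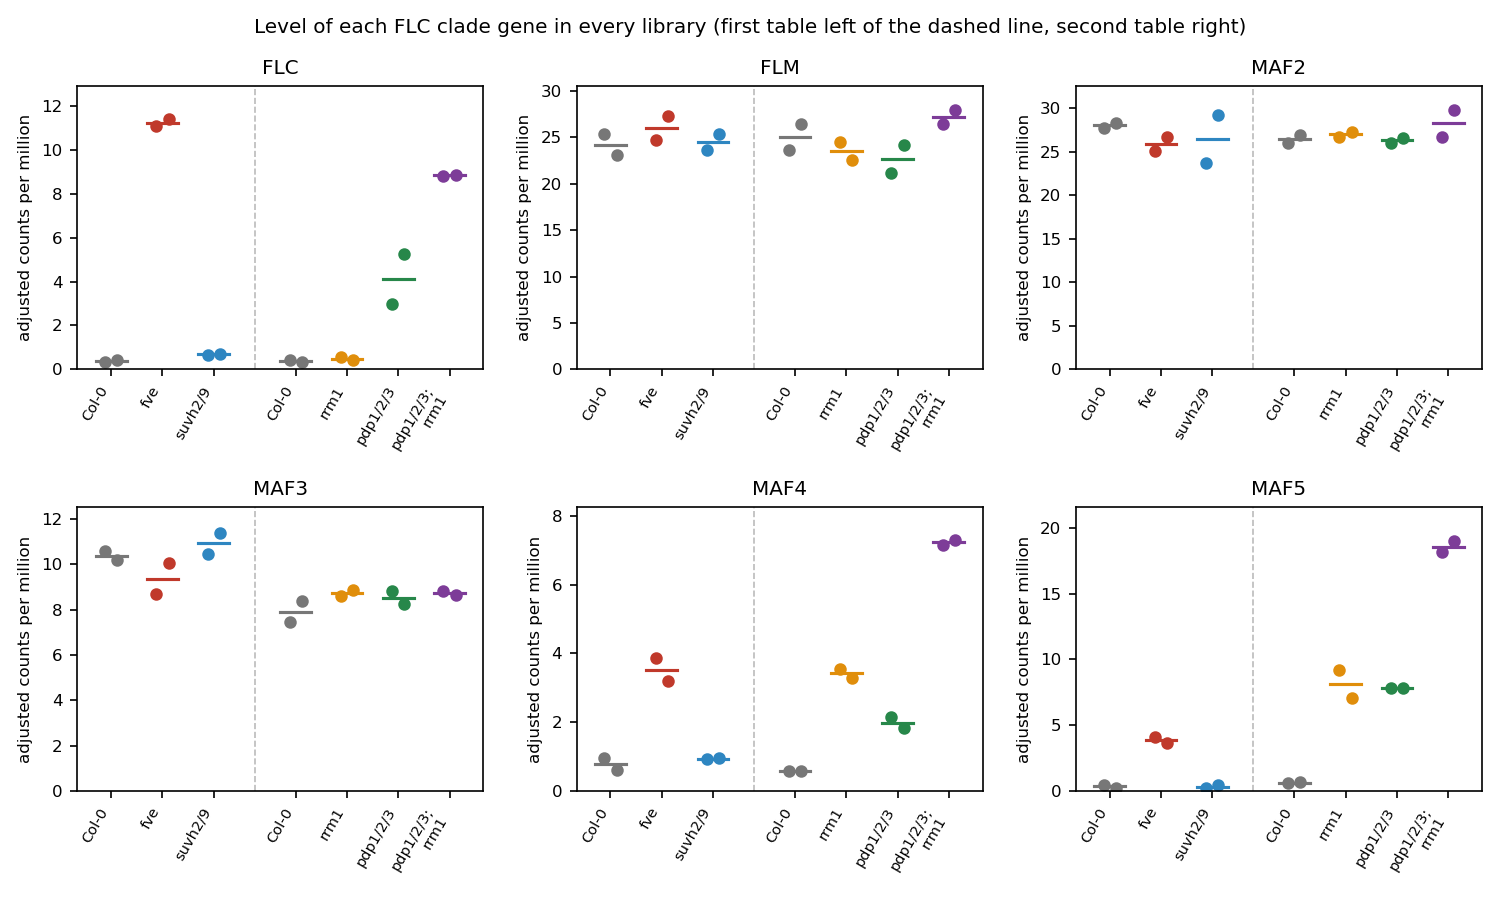
Level of each clade gene in CPM (y axis, linear, from 0) in each of the 14 libraries (points) by group (x axis), with a bar at the mean of each pair. FLM, MAF2 and MAF3 lie in 1 band across the groups, whereas FLC, MAF4 and MAF5 leave the Col-0 level in fve and in groups of the second table.

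The labels were checked on the genes that the annotation names. FVE, at 65.8 and 67.2 CPM in Col-0, fell to 15.1 and 15.5 in fve. SUVH9 fell from 40.7 and 42.8 to 1.13 and 0.942 in suvh2/9, whereas SUVH2 stood at 9.49 and 9.42 in Col-0 and 7.27 and 7.34 in suvh2/9 (log2 difference -0.33, limma adjusted p = 0.335). A transcript that persists does not tell whether the protein is made. The genes altered in rrm1 and pdp1/2/3 were not checked. Totals ran from 21259805 to 21722950 adjusted counts among the 6 libraries of fve, suvh2/9 and their Col-0, and from 18609045 to 19534578 among the other 8. Such totals are alike where values are adjusted to a common library size, and the number of reads sequenced per library is not known from them. In rrm1 replicate 1 and quadruple-mutant replicate 1, 72.8% and 90.0% of the low values (0.5 to 10) lay within 0.2 of a whole number, against at least 99.8% in the other 12 libraries. Among 4 lists of marker genes, the summed leaf level was 55700 to 62100 CPM and the root level 68.2 to 85.4. Most of the root sum was SCR, with means of 54.1 and 45.6 CPM in the Col-0 of the first and the second table. The shares of leaf and root tissue were not measured.

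The 3 members that were abundant in Col-0 are described first. FLM, a repressor whose splicing responds to ambient temperature, stood at 25.4 and 23.1 CPM in the first pair of Col-0 libraries, 24.7 and 27.3 in fve, and 23.6 and 25.4 in suvh2/9. In the second table it stood at 23.6 and 26.5 in Col-0, 24.5 and 22.5 in rrm1, 21.1 and 24.1 in pdp1/2/3, and 26.4 and 27.9 in the quadruple mutant. Each mutant's libraries overlapped those of Col-0. The quadruple mutant lay above both rrm1 and pdp1/2/3 without overlap, with log2 differences of 0.20 and 0.26, but neither passed the test (adjusted p = 0.223 and 0.193). The values add up the reads of all FLM transcripts, so a shift between its splice forms was not measured.

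MAF2, which holds back flowering after short spells of cold, stood at 27.7 and 28.4 CPM in Col-0, 25.1 and 26.7 in fve, and 23.8 and 29.2 in suvh2/9. In the second table the values were 26.1 and 27.0 in Col-0, 26.8 and 27.3 in rrm1, 26.0 and 26.6 in pdp1/2/3, and 26.8 and 29.9 in the quadruple mutant. Both fve libraries lay just below both Col-0 libraries, by a log2 difference of -0.11 (SE 0.09, adjusted p = 0.653). In every other mutant the libraries overlapped those of Col-0.

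MAF3, also an abundant floral repressor, stood at 10.6 and 10.2 CPM in Col-0, 8.67 and 10.06 in fve, and 10.5 and 11.4 in suvh2/9. In the second table it stood at 7.44 and 8.37 in Col-0, 8.58 and 8.87 in rrm1, 8.80 and 8.24 in pdp1/2/3, and 8.81 and 8.65 in the quadruple mutant. The fve libraries lay below those of Col-0 and the rrm1 and quadruple-mutant libraries above them, by -0.14, 0.13 and 0.13 on the log2 scale, and none passed the test (adjusted p = 0.618, 0.539 and 0.430). Over FLM, MAF2 and MAF3 and the 5 mutants, the 95% intervals of the log2 difference from Col-0 ran from -0.36 to 0.36 at most. Changes beyond that range lie outside these intervals, and smaller ones could not be told from the spread between libraries.

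FLC was low in Col-0 and was the gene with the highest log2 difference of all 19090 tested in fve. The level was 0.320 and 0.422 CPM in the Col-0 pair of the first table, 11.1 and 11.4 in fve, and 0.657 and 0.706 in suvh2/9. The fve libraries were thus far above all others of the table, and both suvh2/9 libraries lay a little above both Col-0 libraries. The ratio of the means of fve and Col-0 was 30.3, and 26.3 to 35.6 over single pairs of libraries. On the log2 scale of the level plus 1, which understates the change of low genes, the difference was 3.16 (SE 0.14, adjusted p = 6.02e-07). In suvh2/9 the ratio was 1.84 and the log2 difference 0.30 (SE 0.14, adjusted p = 0.772), with a 95% interval from -0.01 to 0.60. The direct comparison of fve with suvh2/9 gave 2.86 (SE 0.14, adjusted p = 3.63e-07).

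In the second table FLC stood at 0.411 and 0.318 CPM in Col-0, 0.550 and 0.410 in rrm1, 2.99 and 5.23 in pdp1/2/3, and 8.81 and 8.86 in the quadruple mutant. The rrm1 libraries overlapped those of Col-0, while the pdp1/2/3 and quadruple-mutant libraries lay above them. The ratio to Col-0 was 1.32 in rrm1 (log2 difference 0.12, SE 0.19, adjusted p = 0.793, 95% interval -0.30 to 0.53). It was 11.3 in pdp1/2/3 (log2 1.87, SE 0.19, adjusted p = 4.32e-05) and 24.2 in the quadruple mutant (log2 2.85, SE 0.19, adjusted p = 3.49e-06). Between the quadruple mutant and rrm1 the log2 difference was 2.73 (adjusted p = 1.83e-05), the second highest of 19241 genes tested.

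The pdp1/2/3 libraries differed from each other in FLC more than those of any other group, 4.11 ± 1.59 CPM (SD, n = 2). The quadruple mutant, at 8.84 ± 0.0335, lay above both, by a ratio of 2.15 (1.68 to 2.96 over pairs of libraries) and a log2 difference of 0.98 (SE 0.19, adjusted p = 0.0187). This call was lost without pdp1/2/3 replicate 1, where the log2 difference was 0.66 (adjusted p = 0.0822), and without either quadruple-mutant library (log2 difference 0.98 in both cases, adjusted p = 0.114 and 0.0757).

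A long non-coding antisense transcript, AT5G01675, is annotated on the plus strand across FLC (chr5:3173371-3179600) and covers 804 of the 1180 exon bases of FLC (68.1%). The files list it at 0 to 5.01 adjusted counts per library, with the 5.01 in quadruple-mutant replicate 2. Whether strand was used in the counting is not given in the sources used here, so reads of FLC and of its antisense transcript cannot be told apart over those bases.

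MAF4 and MAF5, neighbours at the end of the cluster, moved together, and in more of the mutants than FLC. MAF4, a repressor of the clade, stood at 0.964 and 0.610 CPM in the first Col-0 pair, 3.85 and 3.18 in fve, and 0.939 and 0.941 in suvh2/9. The fve libraries lay above all others, and those of suvh2/9 fell between the Col-0 libraries. In fve the ratio to Col-0 was 4.47 (3.30 to 6.31 over pairs of libraries) and the log2 difference 1.34 (SE 0.16, adjusted p = 0.00127).

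In the second table MAF4 stood at 0.564 and 0.583 CPM in Col-0, 3.55 and 3.28 in rrm1, 2.15 and 1.81 in pdp1/2/3, and 7.16 and 7.30 in the quadruple mutant. No group overlapped another, and the order was Col-0, pdp1/2/3, rrm1 and quadruple mutant. The ratios to Col-0 were 3.45 in pdp1/2/3 (log2 0.92, SE 0.13, adjusted p = 0.000487), 5.95 in rrm1 (log2 1.49, SE 0.13, adjusted p = 0.000150) and 12.6 in the quadruple mutant (log2 2.39, SE 0.13, adjusted p = 2.01e-06). The quadruple mutant also exceeded rrm1 by 0.90 (adjusted p = 0.00166) and pdp1/2/3 by 1.47 (adjusted p = 0.000190). The difference between rrm1 and pdp1/2/3 was not tested.

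MAF5, which unlike FLC is known to rise on prolonged cold, stood at 0.459 and 0.235 CPM in the first Col-0 pair, 4.13 and 3.65 in fve, and 0.188 and 0.423 in suvh2/9. The fve libraries again lay above all others, and those of suvh2/9 overlapped Col-0. The ratio of fve to Col-0 was 11.2 (7.94 to 17.6 over pairs of libraries) and the log2 difference 1.86 (SE 0.17, adjusted p = 0.000212), the sixth highest of the table.

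In the second table MAF5 stood at 0.564 and 0.635 CPM in Col-0, 9.20 and 7.07 in rrm1, 7.81 and 7.82 in pdp1/2/3, and 18.2 and 19.0 in the quadruple mutant. The rrm1 and pdp1/2/3 libraries overlapped, and both groups lay between Col-0 and the quadruple mutant. The ratios to Col-0 were 13.6 in rrm1 (log2 2.50, SE 0.13, adjusted p = 4.10e-06) and 13.0 in pdp1/2/3 (log2 2.46, SE 0.13, adjusted p = 1.24e-06). In the quadruple mutant the ratio was 31.0 and the log2 difference 3.61 (SE 0.13, adjusted p = 5.83e-08), the second highest of all genes tested. Against rrm1 and against pdp1/2/3 the quadruple mutant was higher by 1.11 and 1.15 (adjusted p = 0.000317 and 0.000700). Per kilobase of exon MAF5 reached 15.2 CPM in the quadruple mutant, the highest value of any member in any group, with FLC at 7.49 and MAF4 at 4.39 there. The FLC values, and so this order, depend on how reads over bases shared with its antisense transcript were counted, which is not known.

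**Figure D2:**
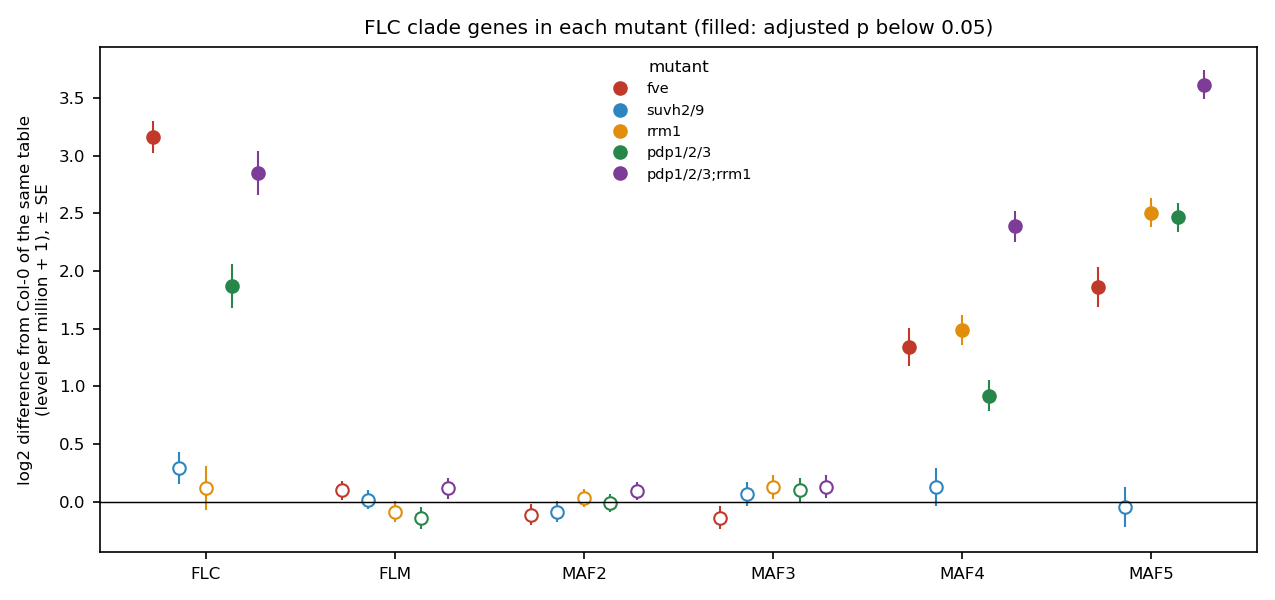
Log2 difference of each clade gene from the Col-0 of its own table (y axis, log2 of the CPM level plus 1) for the 5 mutants, with bars of 1 SE from the limma fit and filled points where the adjusted p was below 0.05. FLC, MAF4 and MAF5 reach 2.85, 2.39 and 3.61 in the quadruple mutant, while FLM, MAF2 and MAF3 stay within 0.15 of 0 in every mutant.

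Counted over the clade, 3 of 6 members rose in fve and none fell, where 1.12% of all genes tested were called higher. In suvh2/9 the count was 0 of 6, at unadjusted p below 0.05 as well, with 0.571% of all genes called in either direction. In rrm1 2 of 6 were called higher (2.74% of all genes), in pdp1/2/3 3 of 6 (10.8%) and in the quadruple mutant 3 of 6 (10.7%). Between fve and suvh2/9 the count was 3 of 6 higher in fve (1.22%), between the quadruple mutant and rrm1 3 of 6 higher (5.46%), and between the quadruple mutant and pdp1/2/3 3 of 6 higher (1.43%). The median log2 difference of the 6 members was 0.72 in fve, 0.04 in suvh2/9, 0.12 in rrm1, 0.51 in pdp1/2/3 and 1.26 in the quadruple mutant. Over all genes it lay within 0.02 of 0 in each comparison. FLC, MAF4 and MAF5 passed the filter on low values (at least 1 CPM in at least 2 libraries) only through the groups where they were high, since no Col-0 library reached 1 CPM for any of them. A member that enters a test in this way had to differ between some groups of its table, though not in every comparison. These counts, and the ranks and p-values of FLC, MAF4 and MAF5, are therefore given as a description. In bulk seedlings, more cells that express a gene and more RNA per cell cannot be told apart.

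The second table allows the quadruple mutant to be set beside rrm1 and pdp1/2/3. For FLC the rise over Col-0 was 0.115 CPM in rrm1 and 3.75 in pdp1/2/3, 3.86 in sum, and 8.47 in the quadruple mutant. For MAF4 it was 2.84 and 1.41, 4.25 in sum, and 6.65 in the quadruple mutant. For MAF5 it was 7.54 and 7.22, 14.8 in sum, and 18.0 in the quadruple mutant. On the level scale each of the 3 therefore stood above the sum in the means, by 4.61, 2.41 and 3.24 CPM, with no test on that scale.

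The interaction in the fit asks whether the effect of rrm1 on log2 of the CPM level plus 1 differed with the pdp1/2/3 genotype. It was 0.86 for FLC (SE 0.27, adjusted p = 0.221), -0.02 for MAF4 (SE 0.19, adjusted p = 0.979) and -1.35 for MAF5 (SE 0.18, adjusted p = 0.0180). Thus 1 of 6 members was called, lower, where 0.223% of all genes were called lower. The added 1 draws the values of low genes toward 0, so these are not interactions of the folds themselves. With 0.1 added in its place the values were 0.82 for FLC (adjusted p = 0.463), -0.56 for MAF4 (0.455) and -2.31 for MAF5 (0.00394).

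From the means, with nothing added and no test, MAF4 in the quadruple mutant stood at 12.6 times Col-0, where the ratios of rrm1 and pdp1/2/3 multiply to 20.6. MAF5 stood at 31.0 times, against a product of 177, and FLC at 24.2 times, against 14.9. MAF4 and MAF5 were thus above the sum of the rises in CPM and below the product of the ratios, while FLC was above both. The MAF5 call on log2 of the level plus 1 ended without Col-0 replicate 3 (-1.32, adjusted p = 0.0753), and it ended too with no filter, with no mean-variance trend and without the 2 libraries whose low values are not whole.

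**Figure D3:**
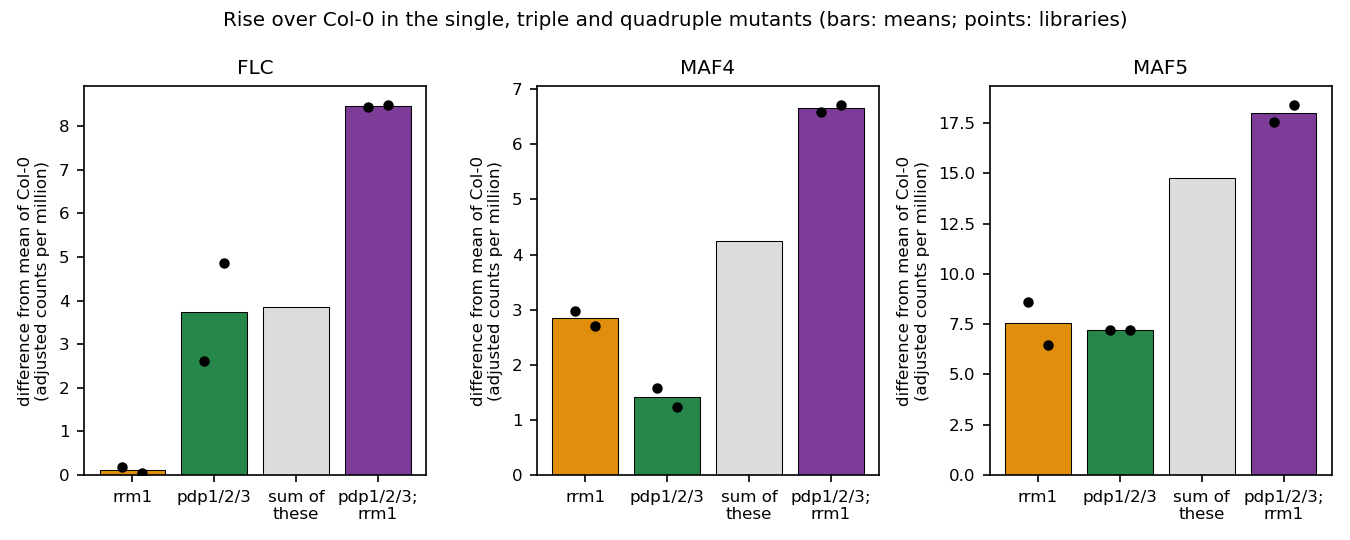
Rise of FLC, MAF4 and MAF5 over the mean of Col-0 (y axis, CPM, linear from 0) in rrm1, pdp1/2/3 and the quadruple mutant, with the sum of the means of rrm1 and pdp1/2/3 in grey. Bars are means and points are single libraries, and the quadruple mutant stands at 8.47, 6.65 and 18.0, above sums of 3.86, 4.25 and 14.8.

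Some markers of other organs moved with part of these results. The summed level of 6 flower genes was 4.24 to 6.47 CPM in the Col-0 of the second table, 14.9 to 19.0 in rrm1 and 10.5 to 10.7 in the quadruple mutant. Of these 6 genes only 2 were tested in the second table, PI and SEP3. PI, needed for petals and stamens, passed the test in both mutants, and SEP3, a partner of the floral organ factors, in rrm1. In the means AP3 was higher than in Col-0 in both (0.608 and 0.421 CPM against 0.234) and SEP2 lower (0.126 and 0.0266 against 0.182). SEP1 and SEP2 stayed under the limit of 3 counts in the quadruple mutant. The summed level of 5 seed genes was 0.265 to 0.308 CPM in that Col-0, 11.2 to 30.2 in rrm1 and 10.6 to 21.8 in the quadruple mutant, most of it CRA1, a seed storage globulin. Of the seed list SESA1 stayed under the limit of 3 counts in both mutants, and ABI3 in rrm1. CRC stood at 3.22 ± 4.55 CPM (SD, n = 2) in rrm1 and 2.28 ± 3.23 in the quadruple mutant. OLEO1 stood at 0.383 ± 0.477 and 0.106 ± 0.150 there, and ABI3 at 0.0796 ± 0.113 in the quadruple mutant. Each of these SDs exceeds its mean, so the levels rest mostly on a single library of each pair. The part of the flower and seed genes in the MAF4 and MAF5 result of rrm1 was not tested. In pdp1/2/3, where MAF5 reached a level that overlapped that of rrm1, the flower sum was 4.04 to 4.92 and the seed sum 0.155 to 0.366. In fve the flower sum was 1.80 to 2.18 against 3.24 to 3.90 in Col-0, with SEP3, the only gene of that list tested, lower (-0.90, adjusted p = 0.0353). The seed sum in fve was 0.603 to 0.739 against 0.188 to 0.229, and no seed gene was tested there. ABI3, CRC, OLEO1 and SESA1 were under the limit of 3 counts in both groups, so this sum rests on few counts of CRA1.

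**Figure D4:**
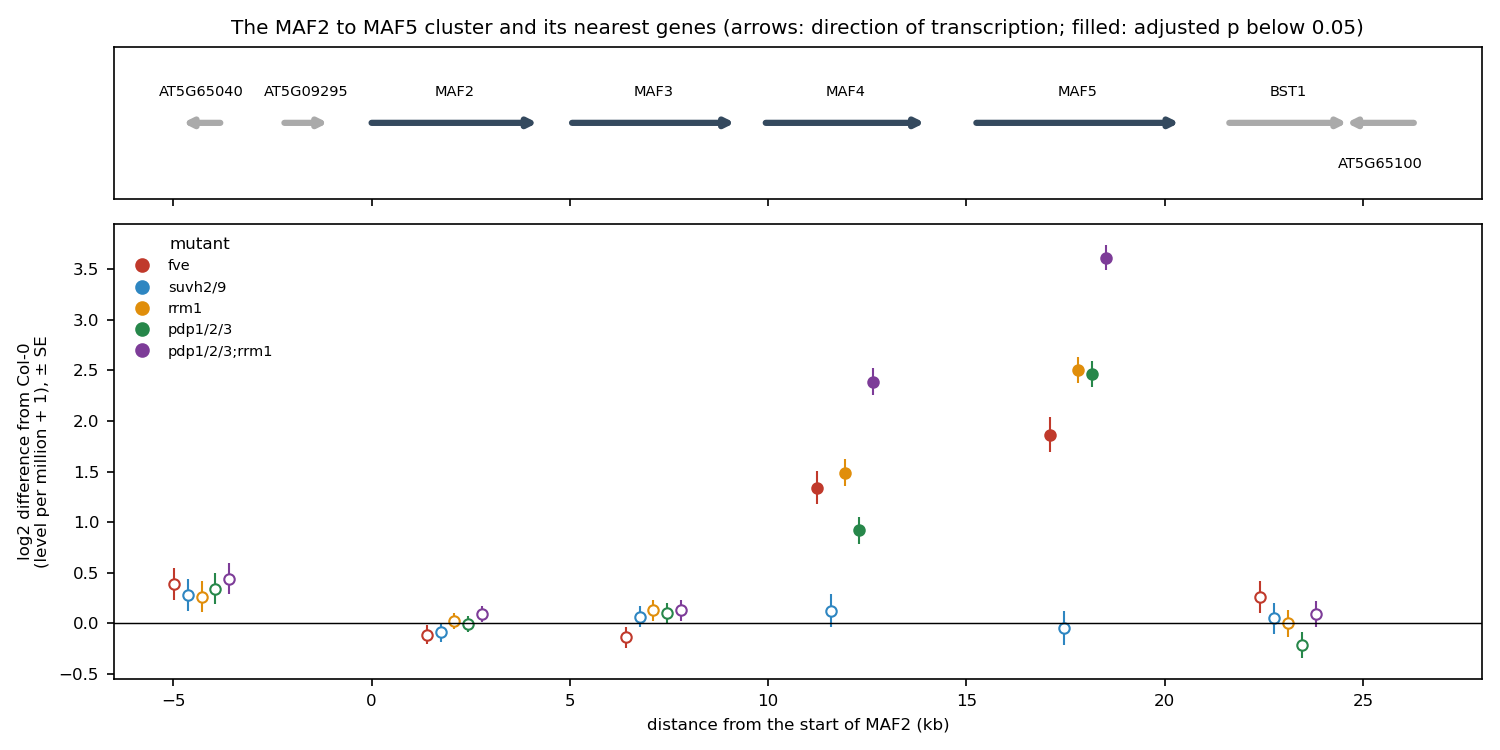
The MAF2 to MAF5 cluster with its 2 nearest annotated genes on each side, as arrows along the distance from the start of MAF2 (x axis, kb), above the log2 difference of each tested gene from Col-0 in the 5 mutants (bars of 1 SE, filled where the adjusted p was below 0.05). Filled points occur at MAF4 and MAF5, and the genes to either side of them, MAF3 and BST1, have none.

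Along the cluster the called genes were adjacent. MAF4 begins 780 bp after the end of MAF3, which passed the test in no mutant. BST1 (AT5G65090), which begins 1263 bp after MAF5 and is known for its part in root hair growth, stood between 1.78 and 2.91 CPM in the 14 libraries and passed it in none of the 9 comparisons. AT5G65040, on the MAF2 side, stood between 1.65 and 3.23 and passed it in none. The long non-coding AT5G09295, 1101 bp before MAF2, stood at 0.210 to 0.924 CPM and was below the filter, and AT5G65100 was listed at 0.

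Beside FLC, AT5G10150, which lies 2490 bp upstream of FLC on the same strand, stood at 14.5 and 12.8 CPM in the Col-0 of the second table, 23.7 and 24.1 in pdp1/2/3 and 22.8 and 23.3 in the quadruple mutant. It was thus higher in the same mutants of that table as FLC, with log2 differences of 0.77 and 0.72 (adjusted p = 9.53e-05 and 0.000190), and its rrm1 value did not pass the test (0.26, adjusted p = 0.129). In fve, where FLC was highest, it was at 17.5 and 19.7 against 15.4 and 16.6 in Col-0 (log2 0.21, adjusted p = 0.357). AT5G10160, the next gene, was higher in rrm1 (0.33, adjusted p = 0.0320) and the quadruple mutant (0.39, adjusted p = 0.00403). AT5G10130, 681 bp from the other end of FLC, passed the test in none.

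Next to FLM, AT1G77090, whose end lies 78 bp from that of FLM, was lower in pdp1/2/3 (-0.48, adjusted p = 0.0113) and in the quadruple mutant (-0.37, adjusted p = 0.0422). AT1G77060, on the other side, was higher in pdp1/2/3 (0.32, adjusted p = 0.0171). AT1G77030, beyond it, passed the test in none. FLM itself passed the test in neither of these mutants. With 18.3% of all genes called in pdp1/2/3 and 17.8% in the quadruple mutant, a called neighbour is not rare in either.

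Transcripts of known regulators of the clade were counted beside the share of all genes called. In all, 5 lists with 44 genes, of which 43 were tested, covered the autonomous pathway, the FRIGIDA complex, the PAF1 complex, activating chromatin factors, and Polycomb and vernalization factors. In fve, with 1.89% of all genes called in either direction, 1 of 43 passed the test, FVE itself (-2.05, adjusted p = 4.75e-08). In suvh2/9 and in rrm1, with 0.571% and 4.03% called, 0 of 43 did. For lists of this size, the counts in fve, suvh2/9 and rrm1 cannot be told from the shares of all genes. In pdp1/2/3 VEL1, a relative of the vernalization factor VRN5, was higher (0.24, adjusted p = 0.0269). In the quadruple mutant VEL1 was higher (0.21, adjusted p = 0.0460) and VIP4, a PAF1 complex subunit that sustains FLC expression, was lower (-0.27, adjusted p = 0.0352). Read against 18.3% and 17.8% of all genes called, 1 and 2 of 43 is a small share.

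Of 10 partner and downstream flowering genes 5 were tested, and SOC1 alone was called in any mutant. SOC1 fell by 1.16 in fve, 0.50 in rrm1, 0.82 in pdp1/2/3 and 1.32 in the quadruple mutant on the log2 scale (adjusted p = 0.000902, 0.00840, 5.68e-05 and 3.09e-06). In rrm1 it fell without a call for FLC, from 64.0 and 62.4 CPM in Col-0 to 42.5 and 46.4. SVP, the partner in repression, was called in no mutant, its largest log2 difference from Col-0 being -0.07 in the quadruple mutant. FT was below the filter. Its libraries stood at 0.642 and 0.516 CPM in Col-0 and 0 and 0.0925 in fve, and at 0.154 and 0.264 in the Col-0 of the second table and 0 and 0 in the quadruple mutant, where a count of 0 allows up to 0.156.

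Across the 14 libraries, each taken relative to the Col-0 mean of its table, the members differed in how alike their patterns were. Pearson's r of the log2 levels was 0.954 for MAF4 and MAF5, 0.712 for FLC and MAF4 and 0.688 for FLC and MAF5. MAF2 and MAF3 gave 0.604, over a narrow range of values. FLM and FLC gave 0.404, and every other pair lay between -0.211 and 0.359. These values describe 14 libraries that share controls within a table, and group differences make up most of the spread of FLC, MAF4 and MAF5. The pair with the most alike pattern, MAF4 and MAF5, is the pair with the shared upstream run of 20 bases printed above. FLM and MAF3, 92.8% identical in the MADS box and sharing another run of 20, gave -0.142. FLM and MAF2, with the longest shared run of 35 bases, gave 0.162. A link between shared runs and likeness of pattern was not tested.

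Among the 18810 genes tested in both tables, the 3 with the pattern most like that of FLC were AT1G03410 (2A6), AT5G42280 and AT1G69710, with r of 0.976, 0.973 and 0.954. AT5G42280 stood at 6.04 ± 1.05 CPM (SD, n = 2) in Col-0 and 11.9 ± 0.828 in fve, and at 6.59 ± 0.111 in the second Col-0, 6.63 ± 0.0172 in rrm1, 10.5 ± 1.09 in pdp1/2/3 and 11.6 ± 0.869 in the quadruple mutant. Its rise was thus smaller in fold than that of FLC. For MAF4 the most alike were MAF5, AT3G06630 (0.953) and FDM2 (0.953), a factor of RNA-directed DNA methylation. FDM2 stood at 7.07 ± 0.211 in Col-0, 11.6 ± 0.893 in fve and 7.17 ± 0.483 in suvh2/9, and at 8.02 ± 0.777, 12.4 ± 1.17, 10.9 ± 0.870 and 15.2 ± 1.19 in the groups of the second table, in the order Col-0, rrm1, pdp1/2/3 and quadruple. For MAF5 they were AT1G26930 (0.957), AT3G05190 (0.956) and MAF4 (0.954). For FLM, MAF2 and MAF3 the highest r was 0.890 (FACE2), 0.898 (AT4G28440) and 0.892 (AT2G10931). The likeness was chosen as the highest of many genes, and it says nothing of shared control.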

How the data were processed

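The authors deposited a normalised signal for each gene in each library, whose values look like counts adjusted to 1 common library size. The submitters' processing notes name HISAT2, featureCounts, edgeR and TAIR10, with no role or version. No source used here gives the strand, the library kit or the RNA selection. Whole reads could not be recovered from every library, so no count test was run.

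Values were divided by the geometric mean of the library totals of their table and multiplied by 1e+06 (CPM). The 19090 and 19241 genes that reached 1 CPM in 2 or more libraries of a table were tested on log2(CPM + 1) with limma 3.58.1 in R 4.3.3, using lmFit and eBayes with trend. There was 1 fit per table over all its groups, with Benjamini-Hochberg adjustment over all genes tested and calls at an adjusted p below 0.05, two-sided. Intervals are limma's at 95%. The fit was also run on simulated negative binomial counts, with changes put only on genes above a set mean level. No changed gene there began as low as FLC, MAF4 and MAF5 in Col-0, so that run does not check their calls. The tables were normalised separately, and no test crosses them. The Col-0 libraries of the second table are numbered 3 and 4, and any handling they did not share with the mutants cannot be told apart from genotype.

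All 32548 identifiers matched the RefSeq annotation of TAIR10.1, from which names, coordinates, exon lengths and sequences come. It may differ from the build of the authors. Named genes were the 6 members, the mutated genes that the annotation names, the 2 nearest annotated genes in the tables on each side of each locus, up to 3 called genes per list and mutant, and the 3 genes most like each member. Members and lists were chosen with earlier results of these data known. Alternatives changed the pseudocount, filter, trend, scaling, groups in the fit, replicate block and libraries.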

Additional observations from a re-analysis of the deposited data

Results flagged for a closer look

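On log2 of the level plus 1, the effect of rrm1 on MAF5 differed between the backgrounds with and without pdp1/2/3. The interaction was -1.35 (SE 0.18, adjusted p = 0.0180 from limma). The call was lost with no filter and with no mean-variance trend (adjusted p = 0.174 and 0.0764). In CPM the means went the other way, the quadruple mutant standing 3.24 above the sum of the rises in rrm1 and pdp1/2/3, with no test. MAF5 was 13.6 times Col-0 in rrm1 and 2.38 times pdp1/2/3 in the quadruple mutant. These ratios of mean CPM differ by -2.51 on the log2 scale, a larger gap than -1.35, because the fit adds 1 to each level. With 0.1 added the interaction was -2.31 (adjusted p = 0.00394). The interval from -1.75 to -0.96 (95%) therefore holds for log2 of the level plus 1 only. On that scale the adjusted p was 0.0729 without the 2 libraries whose low values are not whole, where the log2 value was -1.15.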

How the results depend on the processing

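Over the 9 comparisons the 6 members gave 54 differences, of which 21 were called. All 21 were of FLC, MAF4 or MAF5, which passed the filter only through groups where they were high. Calls kept under the alternatives are therefore a description and no further support. Under the 15 to 18 alternatives run for each difference, 18 of the 21 kept their call and direction throughout, and 0 of the 33 uncalled ones became called. The exceptions were FLC between the quadruple mutant and pdp1/2/3, MAF4 between fve and suvh2/9, and the MAF5 interaction. FLC lost its call at a pseudocount of 0.1 (adjusted p = 0.0569), with no filter (0.0860), with no trend (0.0513), without the 2 libraries with values that are not whole (0.145), and without pdp1/2/3 replicate 1 or either quadruple-mutant library, its log2 difference running from 0.66 to 1.30 over single libraries left out. MAF4 between fve and suvh2/9 fell to 1.11 (adjusted p = 0.0533) without fve replicate 1, so that 2 to 3 members were called there, as between the quadruple mutant and pdp1/2/3. The number of members called in the interaction was 0 with no filter (MAF5 adjusted p = 0.174), with no trend (0.0764) and without those 2 libraries, and 0 to 1 with single libraries left out. The cause was not tested.

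Signs turned for uncalled values near 0 when single libraries were left out. In suvh2/9 the log2 difference ran from -0.049 to 0.082 for FLM, -0.23 to 0.057 for MAF2, -0.018 to 0.27 for MAF4 and -0.18 to 0.084 for MAF5. It ran from -0.17 to 0.12 for MAF2 between fve and suvh2/9, and from -0.032 to 0.014 for MAF2 in pdp1/2/3. Between the quadruple mutant and rrm1 it ran from -0.015 to 0.14 for MAF2 and -0.021 to 0.022 for MAF3. MAF3 there was -0.037 when scaled by own totals and -0.033 without the 2 libraries. It ran from -0.011 to 0.075 for MAF3 between the quadruple mutant and pdp1/2/3. In the interaction it ran from -0.0055 to 0.15 for MAF2 and -0.10 to 0.061 for MAF4, which was 0.035 without the 2 libraries. With 0.1 added in place of 1 the interaction was -0.56 for MAF4 and -2.31 for MAF5.

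The background moved more than the members. The genes called in fve, 361 as reported, were 125 with no filter, 213 with no trend, 650 with only the groups compared and 110 to 648 with single libraries left out. In suvh2/9 they were 109, and 59, 63 and 54 to 172 (no filter, no trend, single libraries). Between fve and suvh2/9 they were 394, and 183, 248 and 113 to 469. In rrm1 they were 775, and 270, 419 and 206 to 1234, with 1752 in a fit of the groups compared and 346 without the 2 libraries. In pdp1/2/3 and the quadruple mutant they were 3513 and 3427, and 1839 to 3576 and 1553 to 3836 with single libraries left out. Between the quadruple mutant and rrm1 they were 1531, and 843, 957 and 435 to 1818, with 624 without the 2 libraries. Between the quadruple mutant and pdp1/2/3 they were 570, and 173, 213 and 182 to 511, with 377 in a fit of the groups compared and 167 without the 2 libraries. In the interaction they were 58, and 2, 3 and 6 to 345, with 129 when scaled by own totals.

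The labels do not say whether replicate numbers pair the libraries, and the main fits treat them as unpaired. Deviations of libraries with the same number correlated at 0.00554, 0.144 and 0.197 in the first table and at -0.1, -0.0107 and -0.0387 among the mutants of the second. With a replicate block 3 members were called in fve, 0 in suvh2/9, and 3 each between fve and suvh2/9 and between the quadruple mutant and rrm1 or pdp1/2/3, as without it. Of all genes 643 were then called in fve, 178 in suvh2/9 and 698 between them, against 361, 109 and 394 without the block. The Col-0 of the second table shares no number with the mutants. The Col-0 levels of FLC, MAF4 and MAF5 rest on 5.04 to 20.7 adjusted counts, so the ratios to them carry a wide counting error.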
